A study of Mus musculus with 14 samples.

Results

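The genes described here are the interleukins and interleukin receptors of mouse satellite cells, the stem cells of skeletal muscle. They were taken by name: every probe of the array design whose gene name begins with Il and a digit, except those of Il6, Il6ra, Il6st and Il11ra1. That rule gave 97 probes of 79 genes, out of 55681 probes and 36406 gene names on the array, and 60 of the 79 genes were bright enough in at least 1 group to be tested. Satellite cells had been sorted by flow cytometry for integrin α7 and CD34 and against CD31, CD45, CD11b and Sca1, from muscle under homeostatic conditions per the series' design text. Their RNA was amplified and hybridised to 14 single-colour arrays, 1 sample each. The study set physiological ageing in C57BL/6 mice beside a strain that ages early: Young mice aged 2 to 3 months on 3 arrays, Old mice aged 22 to 24 months on 3 arrays, and Geriatric mice on 2 arrays, number 1 at 30 months and number 3 at 29 months. These 8 arrays are of C57BL/6 mice. There were 3 arrays each of the senescence-resistant strain SAMR1 and the senescence-prone strain SAMP8, all at 12 months. All mice are labelled male, and the labels name no transgene or treatment.

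Interleukins are secreted signals, most of them known from leukocytes, and each acts on cells that carry its receptor chains. Receptors of the IL-2, IL-6, IL-10 and IL-3 families pass the signal to JAK kinases and STAT factors, and SOCS proteins and Cish damp it. IL-1 family receptors and IL-17 receptors signal through other adaptors to NF-κB. In muscle, IL-15 is made by muscle cells as well as by leukocytes, and IL-1, IL-4, IL-13 and IL-33 are known from regenerating muscle.

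Each level below is the log2 signal of a probe minus the 75th percentile of its array, so that levels of different probes are not compared with each other. A probe was detected on an array where the scanner software marked it well above background. Outlier spots were left out, so a probe with no other spot counted as not detected there. Between 77.1% and 88.8% of all probes were detected per array, with the highest share on Old 1, and no spot was saturated. Between 94 and 255 spots per array were outliers, except for 969 on Geriatric 1. All 10 satellite cell markers, Pax7, Cd34 and Itga7 among them, were detected on every array. Xist, the RNA of the inactive X chromosome, lay between 5.08 and 5.86 on the Young and Old arrays and at -3.52 or lower on all others. The Y-linked genes Ddx3y, Uty and Kdm5d were detected on all Geriatric, SAMR1 and SAMP8 arrays and on no Young or Old array, although all mice are labelled male. A further Y-linked gene, Eif2s3y, was detected on all 14 arrays, at -1.85 to -0.86 on the Young and Old arrays and at -0.64 to -0.17 on the others. Every comparison of Geriatric with Young or Old therefore also crosses this division, and age and this division cannot be told apart there. Both Geriatric arrays also lay on slide 2, with Young 2 and Old 1 and 3, and arrays of the same slide deviated together (median correlation 0.07 over 38 pairs, against -0.07 over 40 pairs of different slides). Within slide 2 each Geriatric call kept its direction, and only Il18rap against Young moved by over 1.5 times. These values reuse the same Geriatric and most of the same Old arrays, and rest on Young 2 alone for Young. They are thus no separate check of the slide. In sorted cells measured in bulk, fewer cells of a type and less RNA per cell cannot be told apart either.

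A smaller share of the interleukin probes than of all probes was detected throughout. Of the 97 probes, 43.3% were detected on every array and 13.4% on none, against 66.1% and 4.51% of all probes. By gene, 38 of the 79 were detected on all 14 arrays, 32 on some, and 9 on none: Il10, Il12a, Il12b, Il1f5, Il1f6, Il23r, Il5, Il7 and Il7r. Among the 32, Il10rb and Il25 were detected on 13 arrays, and on the array left over the spot was an outlier. The number detected per array was 47, 49 and 52 in Young, 61, 54 and 54 in Old, 52 and 52 in Geriatric, 50, 53 and 47 in SAMR1, and 48 on each SAMP8 array. Old 1 was the highest of these, as it was over all probes. The 10 other genes that were not tested were each detected on 1 to 4 arrays: Il2, Il4, Il13, Il21, Il17a, Il1a, Il10ra, Il21r, Il2ra and Il28ra.

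Detection is given here by role, as counts with no test. Of the 7 ligands of the common gamma chain receptors and of IL-4 and IL-13 receptors, none was detected on all arrays, and only Il15 and Il9 could be tested. Of the 10 receptor genes of that family, 5 were detected on all arrays: Il2rb, Il4ra, Il9r, Il13ra2 and Il15ra. Of the 5 IL-17 receptors, found on many non-immune cells, 4 were detected on all arrays and Il17re on 4 arrays. All 10 IL-1 family receptors and binding proteins could be tested, but only Il18bp and Il1rl2 were detected on all arrays. Il16, Il34 and Il4i1, which belong to no receptor family of this set, were detected on every array. The same held for the ligands Il1b, Il1rn, Il1f9, Il1f10, Il11, Il17b, Il17c, Il17f, Il23a, Il27 and Il28b and for the receptor chains Il3ra, Il5ra, Il12rb1, Il17rb, Il17rc, Il20rb and Il22ra1.

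**Figure D1:**
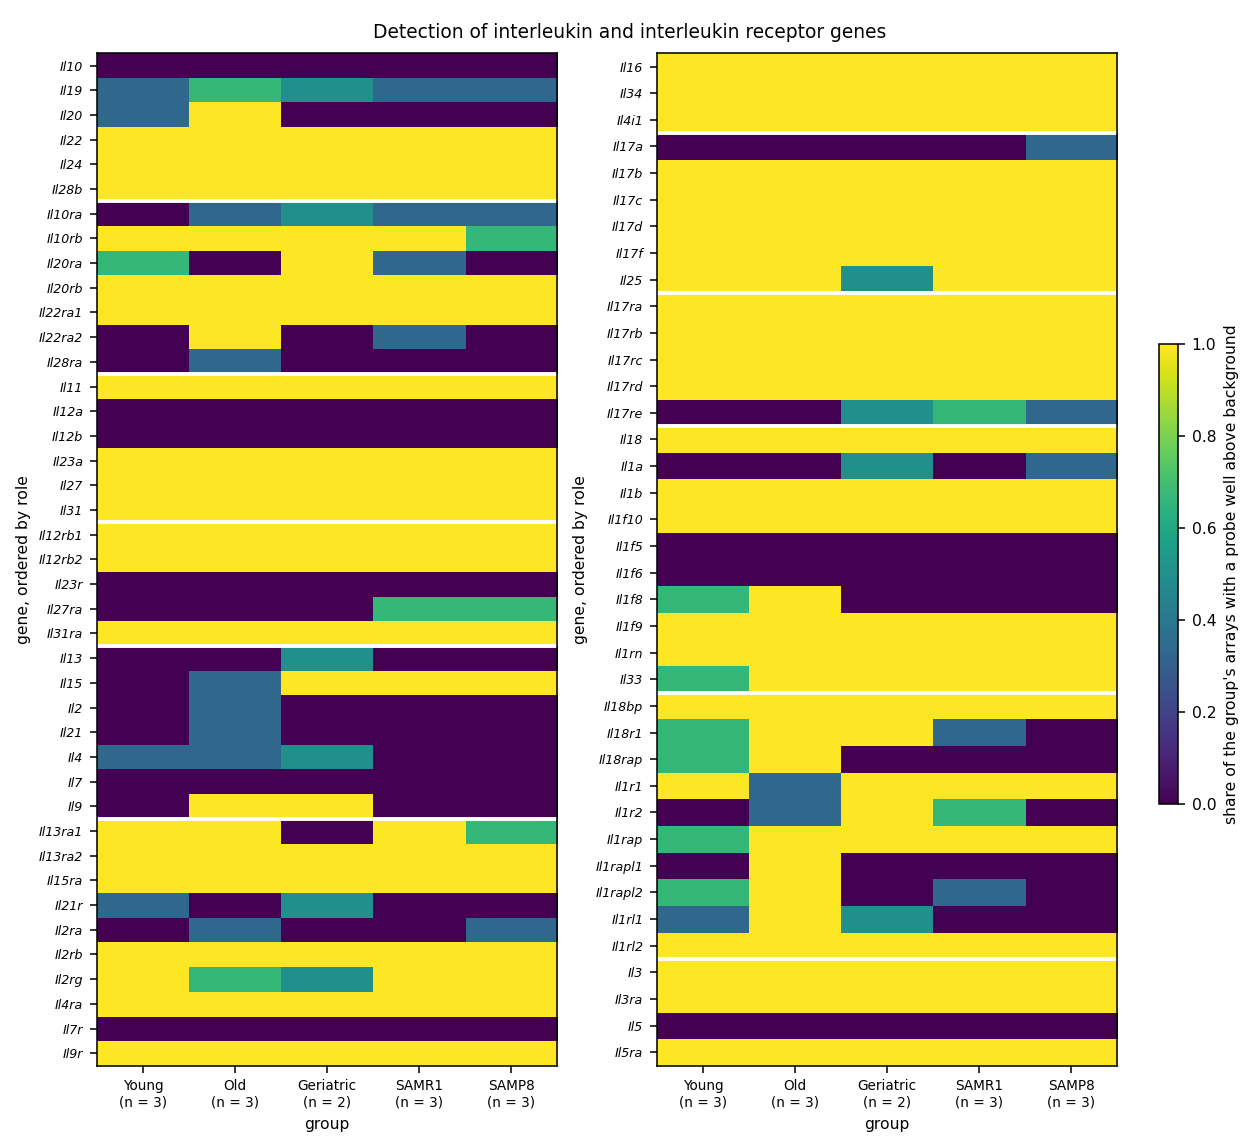
Share of each group's arrays on which at least 1 probe of a gene was well above background, for the 79 genes (rows, in 2 columns of panels, white lines between roles) in the 5 groups (n = arrays). Yellow rows such as Il15ra were detected everywhere, dark rows such as Il10 nowhere, and Il15 goes from 0 of 3 Young arrays to all Geriatric, SAMR1 and SAMP8 arrays.

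Several genes were detected on every array of one group and on none of another. Old had most of them: 7 of 79 genes (8.86%) were detected on all Old and no Geriatric arrays, against 2.52% of all gene names. These were Il13ra1, Il18rap, Il1f8, Il1rapl1, Il1rapl2, Il20 and Il22ra2. The opposite, all Geriatric and no Old arrays, held for 1 gene, Il20ra (1.27% against 0.6% of all gene names). Another 3 genes in each case were detected on all Old and no Young arrays (Il1rapl1, Il22ra2 and Il9) and on all Geriatric and no Young arrays (Il15, Il1r2 and Il9), or 3.8% against 0.58% and 0.83% of all gene names. No gene passed from all Young to no Old arrays, and none differed in this way between SAMR1 and SAMP8. These are counts with no test, and the array with the highest overall detection, Old 1, is among the Old arrays.

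Il15, which sustains NK cells and memory T cells and is also made in muscle, was at background in Young and rose in both older C57BL/6 groups. Its single probe lies at chr8:84858403-84858462 (mm9, minus strand). It is shown with the probe of Il18 because these were the ligands that rose in both older groups. The first 30 of the 60 bases of each probe are given, and nothing is capitalised.
Il15 probe: tgcaggttattttacatgagtacagtaaca
Il18 probe: aggatgaaaatggggataaatctgtaatgt
Il15 was detected on 0 of 3 Young, 1 of 3 Old (Old 1), 2 of 2 Geriatric and all 6 SAMR1 and SAMP8 arrays. Its level was -7.47, -7.67 and -7.53 on the Young arrays, -4.35, -5.11 and -6.49 on the Old arrays, and -4.72 and -4.60 on the Geriatric arrays. It was -1.82, -1.37 and -1.70 in SAMR1 and -2.24, -2.61 and -2.77 in SAMP8. All Young arrays lay below all others, Old 3 lay nearest to them, and the SAMR1 and SAMP8 arrays lay above every C57BL/6 array.

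The comparisons of Old and of Geriatric with Young share the Young arrays, so a rise in both is not 2 independent results. The Il15 difference was 2.24 ± 0.42 on the log2 scale for Old versus Young (SE, n = 3 and 3, limma adjusted p = 0.0276) and 2.90 ± 0.47 for Geriatric versus Young (n = 2 and 3, adjusted p = 0.00611). Since no Young array was above background, only a bound can be given as a fold: at least 1.78-fold higher in Geriatric. Such a bound, here and below, takes for every array of the dim group the higher of the probe's own signal and the lowest signal detected there, and divides the bright group's mean by the mean of these. The bright group's mean takes every array, detected or not, so the value is no strict bound where a bright array was not detected. For Old the calculation gave 1.12-fold, which is no strict bound, since Il15 was detected on 1 Old array. A bound holds for the 75th percentile scaling: normexp and the authors' value table gave smaller differences for every called gene that has a bound. Geriatric and Old differed by 0.66 ± 0.47 with overlapping arrays (adjusted p = 0.326), a value that was 1.67 after quantile normalization (0.0212) and -0.18 with normexp (0.501). SAMP8 lay 0.91 ± 0.42 below SAMR1 without overlap, which did not pass the test (difference -0.91, adjusted p = 0.6). The size of the rise depended on the treatment of background: with a normexp background correction it was 0.48 for Old and 0.30 for Geriatric versus Young (adjusted p = 0.148 and 0.337), and it was 0.26 and 0.61 in the authors' value table (adjusted p = 0.432 and 0.0918). The Old call was lost after quantile normalization (1.45, adjusted p = 0.0867) and without Young 1, 2 or 3 or Old 1 or 2 (from 0.0594 to 0.0882), and the Geriatric call without Geriatric 3 (adjusted p = 0.058).

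Il15ra, the chain that presents IL-15 to neighbouring cells, was detected on all arrays, with little spread by the probe tested. Its level was 6.94, 6.95 and 7.01 in Young, 7.06, 7.02 and 6.84 in Old, 6.57 and 6.54 in Geriatric, 6.67, 6.53 and 6.54 in SAMR1 and 6.70, 7.19 and 6.67 in SAMP8. Both Geriatric arrays lay below every Young and Old array, but the difference from Young of -0.42 ± 0.20 did not pass the test (limma adjusted p = 0.241). A further Il15ra probe, also detected on all arrays, gave 0.38 for the same comparison, opposite in sign. For Old minus Young this further probe gave 0.89, with every Old array above every Young array, where the probe tested gave 0.01. The partner chain Il2rb was detected on all arrays and did not pass the test in any comparison. The common gamma chain Il2rg lay between -2.84 and -1.75 on the Young arrays and on Old 1 and 3, at -6.88 on Old 2, at -8.13 and -2.63 on the Geriatric arrays, and between -0.04 and 0.39 in SAMR1 and SAMP8 except for SAMP8 3 at -4.55. A single array each of Old, Geriatric and SAMP8 was thus far below the rest of its group, and no Il2rg comparison passed the test.

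Il18, a cytokine that is processed by caspase-1 and acts on T and NK cells, rose in both older groups and was detected on all 14 arrays. Its level was -3.69, -3.03 and -3.29 in Young, -2.43, -1.81 and -1.83 in Old, -1.35 and -1.33 in Geriatric, -2.20, -1.89 and -2.11 in SAMR1 and -2.02, -2.54 and -1.65 in SAMP8. The Young arrays were the lowest and the Geriatric arrays the highest of all 14. The log2 difference was 1.31 ± 0.27 for Old versus Young (limma adjusted p = 0.0416) and 2.00 ± 0.30 for Geriatric versus Young (adjusted p = 0.00439). The Geriatric call held in every alternative fit run, with values that all stayed above 0. The Old call lay near the threshold and was lost without any 1 of 12 of the 14 arrays (all but SAMP8 2 and 3, adjusted p from 0.0529 to 0.151), after quantile normalization (1.12, 0.0974) and in the authors' value table (0.74, 0.0977). Within the slides that carried the arrays, Old minus Young was 1.68 on slide 1 and 0.90 on slide 2. The Il18 probe lies at chr9:50389761-50389820 (mm9).

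No other gene of the Il18 system passed the test as higher. The inhibitor Il18bp did not pass the test in any comparison. The receptor chain Il18r1 lay at -4.13, -5.67 and -4.17 in Young, -1.84, -3.27 and -3.90 in Old, and -4.32 and -5.68 in Geriatric, and passed no test. The second chain, Il18rap, was at -4.80, -6.58 and -4.53 in Young, -4.31, -4.05 and -5.13 in Old, and -8.11 and -7.35 in Geriatric. Il18rap was detected on 2 Young, 3 Old and no Geriatric arrays, and both Geriatric arrays lay below all Young and Old arrays. It fell in Geriatric, with a difference of -2.42 ± 0.53 against Young (limma adjusted p = 0.0276). Against Old the difference was -3.23 ± 0.53 (adjusted p = 0.00238, at least 3.24-fold lower). Against Young the calculation of the bound gave 1.85-fold, which is no strict bound, since Il18rap was detected on only 2 Young arrays. Il18rap passed the detection filter through the Young and Old arrays alone, so that a high value there was a condition of its being tested. The call against Young was lost without Young 1, Young 3, Geriatric 1 or Geriatric 3 (adjusted p from 0.0759 to 0.171) and with slide as a block (0.0707), and both calls were lost in the authors' value table (-0.42 and -0.49, adjusted p = 0.246 and 0.0888). On slide 2 alone, the Geriatric value was -1.14 against Young.

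Il9, a growth factor of mast cells and T cells, had its level at -5.83, -6.70 and -6.37 in Young, -4.86, -4.57 and -4.96 in Old and -4.24 and -4.00 in Geriatric. It was detected on all Old and Geriatric arrays and on no Young, SAMR1 or SAMP8 array, where levels ran from -7.44 to -5.53. Its rise in Geriatric versus Young was 2.18 ± 0.53 (limma adjusted p = 0.0423, at least 2.58-fold). Il9 passed the detection filter through the Old and Geriatric arrays alone, so that a high value in Old or Geriatric was a condition of its being tested. Old versus Young gave 1.50 ± 0.47 without overlap of the arrays, which did not pass the test (adjusted p = 0.14). The Geriatric call was lost without Young 2 or 3, Old 1, 2 or 3, or Geriatric 1 or 3 (adjusted p from 0.0533 to 0.217). It was 0.28 with normexp and 0.57 in the authors' value table (adjusted p = 0.29 and 0.102).

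**Figure D2:**
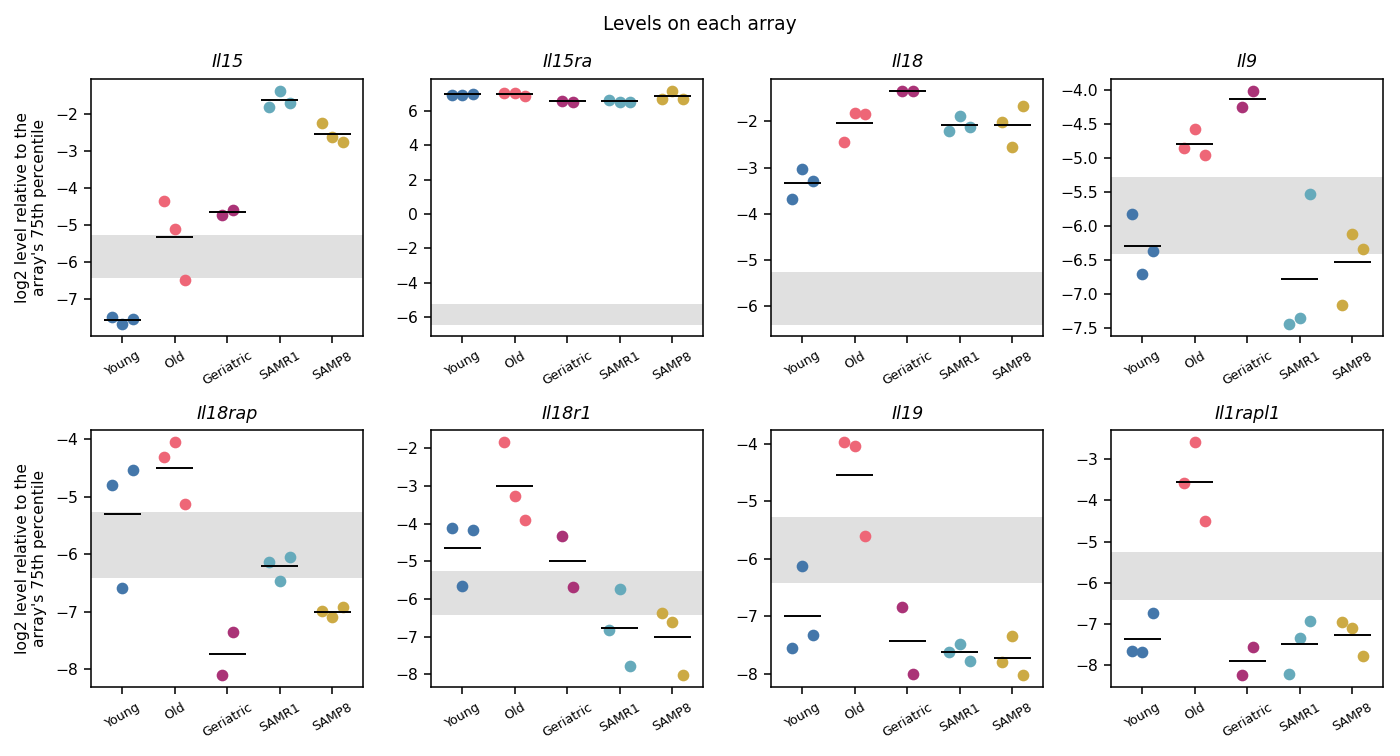
Log2 level relative to the array's 75th percentile (y axis, its range differing between panels) of 8 genes on each array, by group. Points are arrays, black lines are group means, and the grey band spans the lowest detected signal of the 14 arrays. Il15, Il18 and Il9 lie lower in Young than in Old and Geriatric, Il15ra stays between 6.53 and 7.19, and Il18rap, Il18r1, Il19 and Il1rapl1 have their highest mean in Old.

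In the comparison of Old with Young, 4 of the 60 genes tested rose and 0 fell. Over all 32863 genes tested, 1.2% rose and 0.24% fell. At an unadjusted p under 0.05 there were 17 of the interleukin genes (28.3%), against 16.9% of all genes, and the median difference was 0.15 against 0.06 over all genes. Besides Il15 and Il18, the genes that rose were Il1rapl1 and Il19, whose tested probes passed the detection filter through the Old arrays alone. Fitted on the Young and Old arrays alone, 0 of the 60 passed. There was 1 call without Young 1, Old 1 or Old 2, and there were 2 without Young 3, SAMR1 1, 2 or 3, or SAMP8 1.

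Il1rapl1, an IL-1 receptor-like protein of synapses encoded on the X chromosome, had the largest difference of the 60 between Old and Young on this scale. Its level was -3.57, -2.58 and -4.51 on the Old arrays, against -7.67, -7.68 and -6.74 in Young and -8.26 and -7.58 in Geriatric, and it lay between -8.24 and -6.94 in SAMR1 and SAMP8. It was detected on all Old arrays and on no other array. The log2 difference was 3.81 ± 0.50 for Old versus Young (limma adjusted p = 0.00665, at least 3.82-fold higher) and -4.36 ± 0.56 for Geriatric versus Old (adjusted p = 0.000607, at least 6.22-fold lower). With normexp these differences were 1.09 and -1.43, and they were 0.91 and -0.90 in the authors' value table, all past the threshold, while a fit of Old and Young alone lost the first (adjusted p = 0.0701). The tested probes of Il1rapl1, Il19, Il1rl1, Il20 and Il22ra2 passed the detection filter through the Old arrays alone, so that a high value in Old was a condition of their being tested. The values of Il1rapl1 rest on 1 of its 3 probes. The stretches of the 3 probes are set side by side because they disagree, each again the first 30 of 60 bases with nothing capitalised.
Il1rapl1 probe at chrX:83992692-83992751, detected on the 3 Old arrays: acctccataggaaatcagcatacctactgt
Il1rapl1 probe at chrX:83986332-83986391, detected on no array: gttttatagtcgtttcataagtctgttgct
Il1rapl1 probe at chrX:84292063-84545936, detected on no array: ttaactgttacagctcctctaactgataag
The positions are of build mm9, minus strand, and the last spans more genome than its 60 bases. The probes that were not detected gave 0.00 and -0.01 for Old minus Young.

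Il19, an IL-10 family cytokine of the epithelial branch, was detected on Old 1 and Old 2 by the probe tested. Its level was -3.97, -4.04 and -5.60 in Old, -7.55, -6.12 and -7.32 in Young, and -6.85 and -8.01 in Geriatric. The Old arrays lay above all others, with Old 3 the lowest. The rise in Old was 2.46 ± 0.49 (limma adjusted p = 0.0377). Geriatric lay below Old by 2.89, a difference of -2.89 ± 0.55 (adjusted p = 0.00521). The calculation of the bound gave 1.93-fold and 3.15-fold, neither a strict bound, since the probe was not detected on Old 3. The other Il19 probe, detected on 1 array of each group and thus on 5 arrays, did not pass the filter. That probe gave 0.16 for Old minus Young and -0.66 for Geriatric minus Old. The Old versus Young call was lost without Young 1 or 3, Old 1 or 2, SAMR1 1, 2 or 3, or SAMP8 1 (adjusted p from 0.0547 to 0.15), and was 0.54 with normexp and 0.32 in the authors' value table (adjusted p = 0.0976 and 0.279). The Geriatric versus Old call was lost without Geriatric 3 (adjusted p = 0.0696), and the value was -0.36 in the authors' value table (0.141).

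Geriatric versus Young, which shares the Young arrays with the comparison above, had 3 of 60 genes higher (Il15, Il18 and Il9) and 1 lower (Il18rap). Over all genes tested, 1.58% rose and 2.61% fell. Il9 passed the filter through the Old and Geriatric arrays alone, and Il18rap through the Young and Old arrays alone. This limits a reading of the counts against these shares. The median over all genes was itself -0.18 under this scaling and -0.04 after quantile normalization, and the median of the interleukin genes was -0.36 and -0.10. An unadjusted p under 0.05 was found for 17 interleukin genes (28.3%) and for 21.9% of all genes. Of all calls, 37.7% were higher, against 50.7% in the authors' value table. Without Geriatric 3, 1 of the 4 calls was left, and without Young 3 there were 2 left.

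Geriatric versus Old, which shares its arrays with both comparisons above, had 2 of 60 genes higher and 12 lower. Over all genes tested, 5.52% rose and 14.4% fell, so that calls were frequent everywhere in this comparison. Il1rapl1, Il19, Il1rl1 and Il20, among the 12, were tested only because of their Old arrays. A high value in Old was thus a condition of their being counted. Il18rap, Il1f8 and Il1rapl2, also among the 12, passed the filter through the Young and Old arrays alone. Both points limit a reading of the 12 against 14.4%. The median over all genes was -0.22, against 0.03 after quantile normalization, and the median of the interleukin genes was -0.62 and -0.27. Of all calls 27.6% were higher, against 46.9% after quantile normalization and 43.4% in the authors' value table. Of the interleukin calls after quantile normalization, 5 of 14 were higher. The unadjusted p was under 0.05 for 27 of the 60 genes (45%) and for 35.8% of all genes. Leaving out Geriatric 3 left 5 calls, and leaving out any other array gave between 10 and 15.

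The genes that fell in Geriatric against Old came from several families. All 5 tested ligands of the IL-10 and IL-28 families had negative values under each of 4 scalings (the 75th percentile, quantile normalization, normexp and the authors' value table), and 3 of them fell: Il19, Il20 and Il22. Il20, an epidermal cytokine, was at -1.28, -3.61 and -4.83 in Old and at -8.12 and -8.17 in Geriatric, and in Young at -7.54, -3.64 and -7.17. It was thus detected on all Old arrays, on Young 2 and nowhere else. Its fall was -4.91 ± 1.10 (limma adjusted p = 0.011, at least 7.74-fold lower), lost without Geriatric 1 or 3 (adjusted p = 0.0543 and 0.0751) and in the authors' value table (-1.36, 0.0535). As given above, Il20 was tested only because of its Old arrays. Il22, the cytokine of barrier tissues, was detected on all arrays, at -0.43, -1.09 and -0.99 in Old and -1.68 and -2.32 in Geriatric. Its difference was -1.16 ± 0.36 (adjusted p = 0.0425), and the call was lost without any 1 of 9 arrays (Young 3, Old 1, 2 or 3, Geriatric 1 or 3, SAMR1 1 or 3, or SAMP8 1, adjusted p from 0.0521 to 0.283).

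Among the IL-1 family receptors, 4 fell from Old to Geriatric, Il1rapl1 and Il18rap among them. Il1rapl2, an X-linked relative of Il1rapl1, was at -2.22, -3.14 and -3.93 in Old, -7.62, -4.92 and -5.00 in Young, and -8.27 and -8.17 in Geriatric. The Geriatric arrays lay below all Young and Old arrays, and the fall was -5.12 ± 0.85 (limma adjusted p = 0.0025, at least 8.54-fold lower), a call kept in every alternative fit with smaller values under normexp (-1.73) and in the authors' value table (-1.24). Il1rl1, the receptor of IL-33, was at -4.55, -4.08 and -4.09 in Old, -6.82, -7.54 and -4.93 in Young and -5.45 and -7.37 in Geriatric. It was detected on 1 of 2 Geriatric arrays, and its fall of -2.17 ± 0.69 lay at the threshold (adjusted p = 0.046). That call was lost without any 1 of 11 arrays (all but Young 2 and 3 and Geriatric 1, adjusted p from 0.0524 to 0.362), after quantile normalization (-1.22, 0.171) and in the authors' value table (-0.29, 0.243). Il1f8, a ligand of the IL-1 family, was at -3.07, -3.64 and -4.21 in Old, -7.50, -5.02 and -4.29 in Young and -8.03 and -8.17 in Geriatric, where it was not detected. Its fall was -4.46 ± 0.71 (adjusted p = 0.00199, at least 5.87-fold lower) and was kept in every alternative fit, at -1.42 with normexp and -0.87 in the authors' value table. As given above, Il1rapl2 and Il1f8 were tested only because of their Young and Old arrays, and Il1rl1 only because of its Old arrays.

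Il13ra1, the chain that pairs with the IL-4 receptor to bind IL-13, was detected on all Young, Old and SAMR1 arrays, on 2 SAMP8 arrays and on no Geriatric array. It lay at -5.23, -4.29 and -3.49 in Young, -1.57, -3.99 and -3.86 in Old and -7.97 and -6.92 in Geriatric. Its fall against Old was -4.31 ± 1.06 (limma adjusted p = 0.0171, at least 8.29-fold lower), lost without Old 1, Geriatric 1 or Geriatric 3 (adjusted p from 0.057 to 0.101), and -1.12 in the authors' value table (0.0796). Against Young it was -3.11 ± 1.06 and did not pass (adjusted p = 0.127). Il4ra, detected on all arrays, had -0.92 ± 0.26 for Geriatric versus Young, also short of the threshold (0.0786). All 7 tested receptor genes of this family had negative values for Geriatric versus Young and versus Old, where quantile normalization left 5 and 6 of them negative and the authors' value table left 6 in each.

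Il31ra, a receptor chain of the IL-6 family, and its ligand Il31, known from itch, both fell. Il31ra was at -0.04, 0.25 and -0.25 in Old and -1.92 and -2.37 in Geriatric, a difference of -2.13 ± 0.43 (limma adjusted p = 0.0073), lost without Geriatric 3 (0.0751). Its other probe gave -1.45 for the same comparison. Il31 was at -3.52, -3.39 and -3.16 in Old and -4.07 and -4.67 in Geriatric, a difference of -1.02 ± 0.26 (adjusted p = 0.0207), also lost without Geriatric 3 (0.199), and -0.36 after quantile normalization (0.373). Il3, a growth factor of blood cell progenitors, was at -1.85, -1.57 and -3.13 in Old and -3.44 and -4.72 in Geriatric. Its difference of -1.89 ± 0.58 (adjusted p = 0.0396) was lost without Young 3, Old 1 or 2, Geriatric 3, SAMR1 1 or 3, or SAMP8 1 (adjusted p from 0.051 to 0.298) and after quantile normalization (-1.49, 0.0763).

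Il1r1, the signalling receptor of IL-1, moved the other way and was the larger of the rises. It was lowest in Old, at -5.07, -6.69 and -6.06, against -4.40, -3.27 and -4.01 in Young, -2.74 and -2.36 in Geriatric and -4.03 to -2.65 in SAMR1 and SAMP8. It was detected on 1 Old array and on every array of the other groups. Geriatric exceeded Old by 3.39 ± 0.53 (limma adjusted p = 0.00192), a call kept in every alternative fit, at 1.15 with normexp and 1.55 in the authors' value table. Old lay below Young by 2.04, a difference of -2.04 ± 0.48 that did not pass (adjusted p = 0.0627). Il17rd, a receptor-like protein that also restrains FGF signalling, was at -0.62, -0.50 and -0.20 in Old, 0.15, 0.90 and 0.31 in Young and 1.13 and 0.96 in Geriatric. Its rise from Old to Geriatric was 1.48 ± 0.31 (adjusted p = 0.00836), lost without Geriatric 1 or 3 (0.0544 and 0.051). Of the 5 IL-17 receptors, by the probes tested, all 5 had positive values in Geriatric versus Old, or 4 in the authors' value table, with 1 called. All 5 were positive in Geriatric versus Young under each of the 4 scalings, with 0 called. The sign for Il17rc depended on the probe. The probe tested gave 0.01 against Old and 0.14 against Young, and its other probe, also detected on all arrays, gave -0.73 and -0.27. Il17ra, the shared chain, had 1.08 ± 0.31 in Geriatric versus Young (adjusted p = 0.0822).

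**Figure D3:**
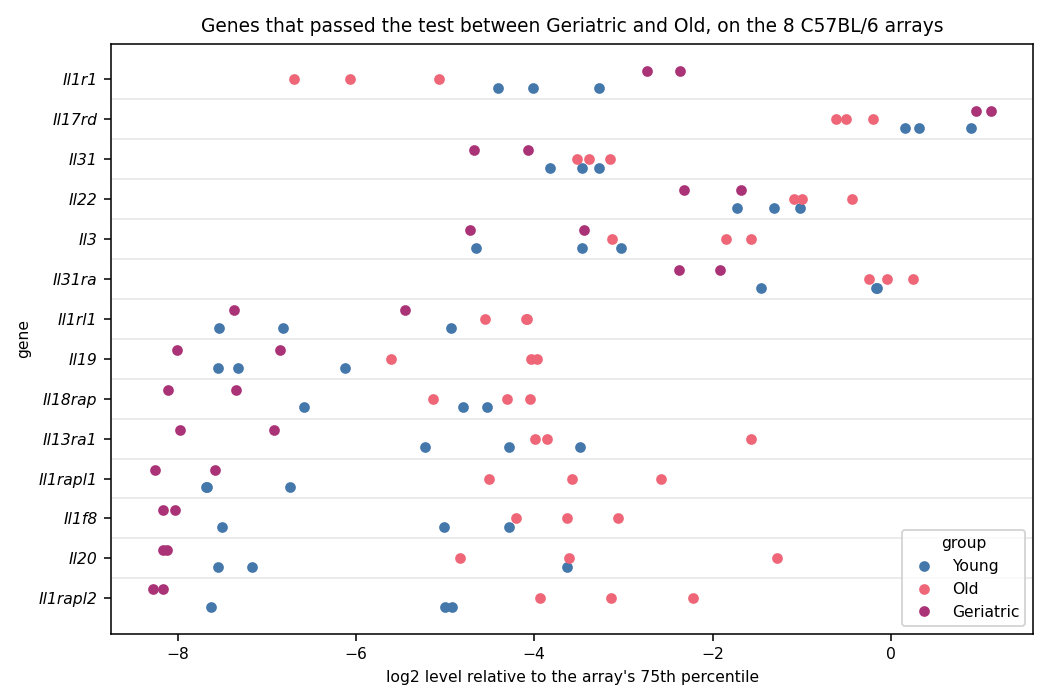
Log2 level relative to the array's 75th percentile (x axis) of the 14 genes that passed the test between Geriatric and Old (rows), with 1 point per array of the Young, Old and Geriatric groups. Il1r1 and Il17rd are higher on both Geriatric arrays than on every Old array, and the other 12 genes are lower.

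Neighbouring genes of 1 receptor cluster differed in direction. On chromosome 1 the probes of Il1r2, Il1r1, Il1rl2, Il1rl1, Il18r1 and Il18rap follow each other over 425.7 kb, from chr1:40180014-40180073 to chr1:40605729-40605788 (mm9). For Geriatric versus Old, Il1r2, the decoy receptor of IL-1, had 2.17 ± 0.85 (limma adjusted p = 0.0947), and Il1r1 beside it rose. Il1rl2 lay at -0.91 ± 0.49 (0.202), Il18r1 at -2.00 ± 0.80 (0.0989), and Il1rl1 and Il18rap fell. Il1r2 was detected on no Young array, on Old 1, on both Geriatric arrays and on 2 SAMR1 arrays. A second cluster on chromosome 1, with Il24, Il20, Il19 and Il10 over 137.1 kb, held Il24 detected on all arrays, Il20 and the tested Il19 probe mainly in Old, and Il10 on none.

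**Figure D4:**
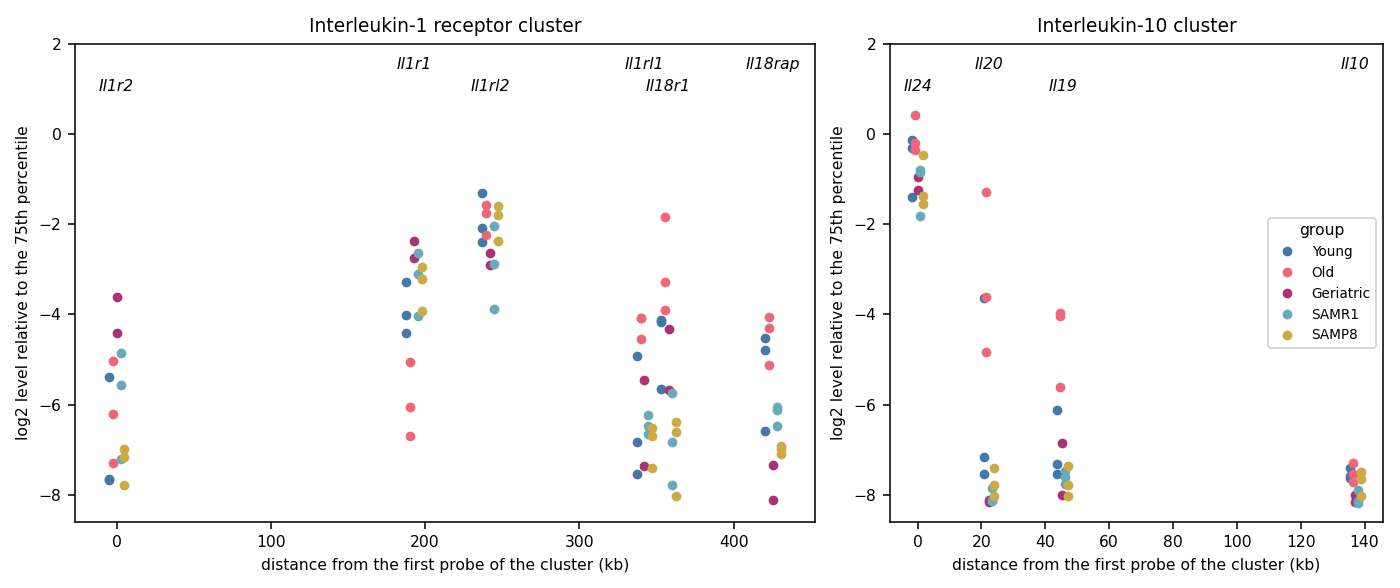
Log2 level relative to the array's 75th percentile (y axis) of each gene on each array, against the distance of its probe from the first probe of the cluster in kb (x axis, groups set slightly apart), for 2 gene clusters of chromosome 1. In the receptor cluster Old has the lowest mean for Il1r1 and the highest for Il1rl1, Il18r1 and Il18rap, and in the other cluster Old stands above Geriatric for Il20 and Il19.

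Some markers of leukocytes moved with several of these genes. Of 10 T, B and NK cell markers, Cd3d, Cd4, Ms4a1 and Nkg7 were lower in Geriatric than in Old (limma adjusted p = 0.0112, 0.0331, 0.0476 and 0.0189), as were Lyz2 and Cpa3 of 11 myeloid markers (0.0251 and 0.0263). Over all genes tested, 14.4% fell in this comparison. Cd79a of the lymphocyte list and Cd68 of the myeloid list had positive values, 0.87 and 0.05 (limma adjusted p = 0.289 and 0.958). The other tested markers of both lists had negative values. The mean level of the lymphocyte list was -3.97 to -2.21 on the Old arrays, -4.36 to -3.85 on the Geriatric arrays and -3.60 to -3.14 in Young. That of the myeloid list was -3.39 to -2.74 in Old, -4.73 to -4.30 in Geriatric and -4.00 to -2.98 in Young. In Geriatric 5 of the 10 lymphocyte and 4 of the 11 myeloid markers were detected on no array of the group, and SAMR1 gave the same counts. They were 3 and 1 in Young, 1 and 0 in Old, and 4 and 2 in SAMP8. Ptprc, which encodes CD45, differed by -0.03 (adjusted p = 0.939). The part of these cells in the interleukin differences was not tested.

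SAMP8 versus SAMR1 gave 0 calls among the 60 genes by limma, against 0.225% of all genes higher and 0.228% lower. The lowest adjusted p was 0.32, and 3 genes had an unadjusted p under 0.05 (5%, below the 8.33% of all genes): Il34, Il33 and Il1rl2. Il34, a ligand of the CSF1 receptor, was at 1.01, 1.40 and 0.47 in SAMR1 and -0.34, -0.41 and 0.28 in SAMP8, a difference of -1.11 ± 0.35. The SAMP8 arrays all lay below the SAMR1 arrays. Il33, an alarmin of stromal and endothelial cells, had 0.93 ± 0.39 with overlapping arrays. By the probes tested, all 5 IL-17 receptors had negative values under each of the 4 scalings, with a median of -0.58 and 0 called. For Il17rb the probe tested gave -0.63, and its other probe, also detected on all arrays, gave 0.77. A difference that missed the threshold does not show that the strains were alike.

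**Figure D5:**
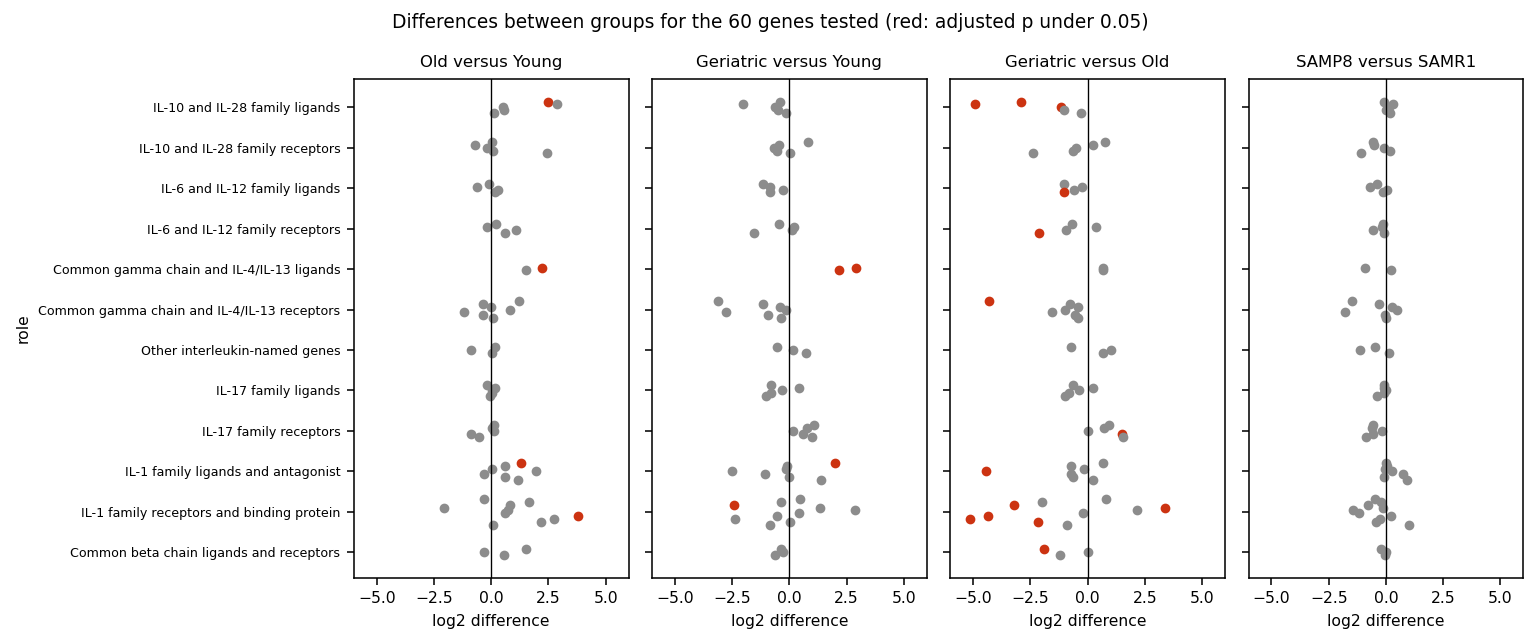
Log2 difference (x axis) of each of the 60 genes tested, by role (rows), in the 4 comparisons (panels). Red points passed the limma test at an adjusted p under 0.05 and grey points did not: 4 in Old versus Young, 4 in Geriatric versus Young, 14 in Geriatric versus Old and 0 in SAMP8 versus SAMR1.

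Some genes separated the strains more than the ages. The 6 SAMR1 and SAMP8 arrays all lay above the 8 C57BL/6 arrays for 3 of the 60 genes (Il15, Il16 and Il33) and below them for 2 (Il18r1 and Il25), where 1.96% and 2.17% of all genes tested did so. This is a description with no test, since strain and age differ at once. The division by Xist and the Y-linked genes also sets the SAMR1 and SAMP8 arrays apart from the Young and Old arrays. Il16, a precursor of a T cell attractant, had its lowest, median and highest level at -1.73, -0.78 and -0.35 on the C57BL/6 arrays and at 0.13, 0.86 and 1.09 on the others. Il33 was at -5.52, -3.85 and -3.15 against -2.62, -1.51 and -0.93. Il18r1 was at -5.68, -4.15 and -1.84 against -8.03, -6.72 and -5.73, a narrow gap near background. The Il18r1 probe was detected on 1 SAMR1 array and 0 SAMP8 arrays. Il25, an IL-17 family ligand that acts through Il17rb, was at -0.55, 0.30 and 0.89 against -2.29, -1.65 and -1.14, where its Geriatric 1 value was missing because the spot was an outlier. The mean level of 8 endothelial markers was 1.15 to 2.39 in SAMR1 and -0.52 to 1.98 in SAMP8, against -2.15 to -0.38 on the C57BL/6 arrays. That of 7 mesenchymal progenitor markers was -0.12 to 0.17 in SAMR1 and -0.33 to 0.17 in SAMP8, against -1.58 to -0.42 on the C57BL/6 arrays. The part of these cells in the gaps was not tested.

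The 39 signalling genes tested included JAK kinases, STAT factors, SOCS proteins, shared receptor chains and the IL-1 receptor pathway. In Old versus Young 1 rose and 0 fell, against 1.2% and 0.24% of all genes tested. In Geriatric versus Young 1 rose and 0 fell, against 1.58% and 2.61%. In Geriatric versus Old 1 rose and 1 fell, against 5.52% and 14.4%. By limma 0 passed in SAMP8 versus SAMR1, against 0.225% of all genes higher and 0.228% lower. There 4 had an unadjusted p under 0.05 (10.3%, against 8.33% of all genes). The gene that rose in both older groups was Cish, which STAT5 induces and which damps its signal. Its level was -3.63, -1.91 and -2.05 in Young, -0.72, -0.45 and -0.15 in Old, 0.29 and -0.35 in Geriatric, -0.36, -0.14 and -0.20 in SAMR1 and 0.84, 0.92 and 0.41 in SAMP8. The Young arrays were the lowest of all 14, with Young 1 apart from the other two. The log2 difference was 2.09 ± 0.40 for Old versus Young (limma adjusted p = 0.0304) and 2.50 ± 0.44 for Geriatric versus Young (0.0102). Stat5a and Stat5b did not pass in any comparison. In Geriatric versus Old the genes were Tab1, an adaptor of IL-1 signalling (0.63 ± 0.19, 0.0404), and Crlf2, the TSLP receptor (-0.95 ± 0.28, 0.0338).

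The promoters of Il18 and Cish, from 250 bases before to 50 after the start of transcription in RefSeq (GRCm38.p6, plus strand of chromosome 9), are shown because both genes were lowest on the 3 Young arrays. Capitals mark matches to TTCNNNGAA, the core to which STAT5 and related factors bind, which reads the same on both strands.
Il18 promoter: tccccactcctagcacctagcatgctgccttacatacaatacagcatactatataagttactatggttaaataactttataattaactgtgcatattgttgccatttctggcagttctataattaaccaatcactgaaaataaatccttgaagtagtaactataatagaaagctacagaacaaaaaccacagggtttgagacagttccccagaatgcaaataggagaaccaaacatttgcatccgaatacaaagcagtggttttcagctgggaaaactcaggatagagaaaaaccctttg
Cish promoter: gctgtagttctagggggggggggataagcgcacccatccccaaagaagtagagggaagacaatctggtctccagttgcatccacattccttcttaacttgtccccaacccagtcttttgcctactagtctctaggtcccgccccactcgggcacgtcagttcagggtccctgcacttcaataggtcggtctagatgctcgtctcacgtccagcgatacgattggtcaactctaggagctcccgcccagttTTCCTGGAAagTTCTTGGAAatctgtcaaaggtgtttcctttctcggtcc
The Cish window holds 2 matches, which do not overlap and begin 1 and 12 bases into the transcript, and the Il18 window holds 0. Of 32851 promoter windows of the same length, 8.3% hold at least 1 match and 0.46% at least 2. Among 75 windows of 61 interleukin and receptor genes, 10 hold a match (13.3%), in Il12rb2, Il17d, Il18r1, Il19, Il1f5, Il1f9, Il1r2, Il31ra, Il4 and Il7r. A match is a run of letters and does not show binding.

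Genes with several probes differed between them in some cases. Il17d was -0.34 for Geriatric minus Young by the probe tested, detected on all arrays, and 2.52 by its other probe, detected on 9. Il31ra was -1.55 by the probe tested and 0.21 by the other for the same comparison. Il9r was -0.36 by the probe tested and 1.18 by its other probe, and Il12rb2 was 0.19 and -0.98. For Il1rl1, whose tested probe gave 2.19 for Old minus Young, the other probes gave 0.82 and -0.01, but these were detected on 1 and 0 of 14 arrays and are background values.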

How the data were processed

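Per the file headers, the authors' scanner files hold spot intensities from Agilent Feature Extraction 10.7.3.1, here the background-subtracted processed signal, with probe coordinates of mm9. The authors' deposited value table gives a log2 value per probe and array, where brighter spots had higher values and every column had a median of 7.8; how it was normalized is not given in the sources used. Per the labels, RNA was whole-transcriptome amplified, and replicates are biological.

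Control and outlier spots were left out, spots of a probe averaged on the log2 scale, and each array's 75th percentile subtracted. Probes had to be well above background on 2 or more arrays of some group (49918 of 55681 were), and the brightest such probe by mean stood for its gene. This gave 32863 genes, with 515 missing values in the fit. The test was limma's (version 3.58.1, R 4.3.3), two-sided, with all 14 arrays in a single linear model of the 5 groups. P-values were adjusted by Benjamini-Hochberg over all genes, with a threshold of 0.05, and the procedure was tested on simulated data. Alternatives were other scalings, background correction, the authors' value table, other dim-probe filters, blocks for slide and replicate number, fits of 2 groups alone and fits without single arrays. Errors are limma's standard errors, and the number of arrays limits the precision. Gene names are those of the array design: 78 of 79 members matched RefSeq, 2 under other symbols (Il28b as Ifnl3, Il28ra as Ifnlr1).

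Named genes were Il15, every member that passed a test, the 3 with the smallest p per role and comparison, members detected on all arrays, and members detected on every array of one group and none of another; of the signalling genes, those that passed and the 3 with the smallest p. Il2rg, Stat5a, Stat5b and the second probes of genes were chosen after their values were seen. The members and lists were chosen with earlier results of these data known. The 2 slides, read from array identifiers, held all 5 groups (slide 2) and all but Geriatric (slide 1). Exon and UTR positions of probes were not analysed here, and neither was a Geriatric sample numbered 2.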

Additional observations from a re-analysis of the deposited data

How the results depend on the processing

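The 4 counts of calls were recomputed in 23 alternative fits each. Old versus Young (4 calls) gave 2 after quantile normalization, 2 in the authors' value table, 0 in a fit of the 2 groups alone and 1 to 4 without single arrays; over all genes the calls went from 472 to 1036 with normexp, 740 in the authors' value table, 729 with slide as a block, 237 with the replicate block, 43 in the 2 groups alone and 85 to 793 without single arrays. Geriatric versus Young (4 calls) gave 2 in the authors' value table, 2 in the 2 groups alone and 1 to 6 without single arrays, and Geriatric versus Old (14 calls) 9 in the 2 groups alone and 5 to 15 without single arrays. SAMP8 versus SAMR1 gave 0 in every alternative. Over all genes, calls went from 1377 to 864 with slide as a block, 869 with the replicate block and 422 in the 2 groups alone for Geriatric versus Young (414 to 1537 without single arrays), and from 6561 to 3001 in the 2 groups alone for Geriatric versus Old (1989 to 7309). For SAMP8 versus SAMR1 they went from 149 to 263 with normexp and 47 in the 2 groups alone (56 to 250). Il15 in Geriatric versus Old reversed, from 0.66 to -0.18 with normexp; the cause was not tested. Of all calls, 83.3% were higher in Old versus Young, against 67.8% after quantile normalization. With the replicate number as a block the counts were 3, 3, 13 and 0; same-numbered arrays deviated together no more than others (median correlation -0.03 over 26 pairs against 0.05 over 52), so the numbers were not taken as pairs. The losses named with each gene above are not always all of them. Of 23 alternative fits, the Geriatric versus Old call was lost in 11 for Il22, 4 for Il31, 9 for Il3 and 16 for Il1rl1. The Geriatric versus Young call was lost in 8 for Il18rap and 11 for Il9, and the Old versus Young call in 9 for Il15 and 16 for Il18. Signal over background limits the dim genes: a gene below background in a group has only a bound there.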
